A study of Drosophila melanogaster with 2 samples.

Results

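The ecdysone receptor, its dimer partner, early hormone-induced transcription factors and further nuclear receptors were described as a set of 10 genes in Taf1 ChIP-seq peak lists from *Drosophila melanogaster* embryos: EcR, usp, Eip75B, Eip74EF, Eip78C, br, ftz-f1, Hr39, Hnf4 and svp. The genes were chosen by name, for their function, with earlier results of these data known. They are 10 of the 13968 protein-coding genes on the chromosome arms. Together they have 40 distinct annotated transcription start sites of the 19630 of all protein-coding genes. The study had 1 group of 2 biological replicates. Transgenic flies carried a Taf1-eGFP fusion, chromatin of whole embryos collected from 0 to 24 h was sonicated to fragments of 200 to 800 bp, and the fusion was precipitated with an anti-GFP antibody. No untreated or mutant embryos and no hormone dose were compared, and no control library was used here. Whole embryos mix all cell types and a full day of development, so a summit does not tell in which cells or at which hour Taf1 was bound.

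Taf1 is a scaffold subunit of TFIID, the basal factor that recognises core promoters and nucleates RNA polymerase II assembly. Ecdysone, the steroid hormone of insect moulting and metamorphosis, binds a heterodimer of EcR and Usp (the fly RXR orthologue), and the liganded receptor induces a small set of early regulatory genes, which in turn control late genes. Several of these regulators are long genes with nested alternative promoters that give protein isoforms with different amino termini, so the start site that holds Taf1 is of interest in itself. Embryos too pass through a pulse of ecdysone before they hatch as larvae.

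Of the deposited lists, 6 are given here: a thresholded list from the pooled reads of both replicates (2658 peaks), a smaller conservative list (2180 peaks, 2032 of them the same), and for each replicate a thresholded list (1281 peaks in replicate 1, 1988 in replicate 2) and a permissive ranked list (33381 and 94109 peaks). Ranking was by the irreproducible discovery rate (IDR), a measure of how poorly a peak's rank repeats between sets of reads. A summit is the position of highest signal in a peak. Signal is the value the authors' peak caller gave each peak. Its scale is not stated, and it was compared only within a list or at the same peak. A start site was counted as holding a summit where one lay within 500 bp of it. All positions are on dm6 and are counted from 1.

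In the pooled list, 8 summits lay at 5 of the 10 genes: 3 at Eip75B, 2 at usp, and 1 each at EcR, br and ftz-f1. Eip74EF, Eip78C, Hr39, Hnf4 and svp held none, neither at a start site nor in the gene body. Of the 8 summits, 3 lay at a start site, 2 of them at the same usp start, and the other 5 were 3.431 to 11.466 kb from the nearest start site of their own gene. The windows around 6 of these summits carry the positions described below and are shown here from RefSeq's copy of the release 6 genome, in the direction of transcription of the gene. Each window runs from 100 bp before to 100 bp after the summit. The capitals mark matches, on either strand, to the short sequences introduced further below.
Eip75B, start site of transcript RC, 3L:17999656-17999856, minus strand: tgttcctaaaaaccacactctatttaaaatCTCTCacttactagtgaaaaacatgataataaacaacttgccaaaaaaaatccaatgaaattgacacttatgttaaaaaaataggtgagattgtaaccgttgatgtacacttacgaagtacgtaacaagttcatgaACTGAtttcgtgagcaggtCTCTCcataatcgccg
usp, start site of transcript RA, X:2041376-2041576, minus strand: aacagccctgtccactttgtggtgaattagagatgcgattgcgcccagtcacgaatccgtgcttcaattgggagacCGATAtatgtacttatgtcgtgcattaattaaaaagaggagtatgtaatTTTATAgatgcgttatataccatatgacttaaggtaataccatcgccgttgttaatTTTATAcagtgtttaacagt
br, intron, X:1618777-1618977, plus strand: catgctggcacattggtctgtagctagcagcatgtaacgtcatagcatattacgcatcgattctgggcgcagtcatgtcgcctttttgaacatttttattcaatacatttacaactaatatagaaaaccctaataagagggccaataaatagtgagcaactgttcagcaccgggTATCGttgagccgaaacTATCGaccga
Eip75B, intron between the starts of RG and RC, 3L:18019697-18019897, minus strand: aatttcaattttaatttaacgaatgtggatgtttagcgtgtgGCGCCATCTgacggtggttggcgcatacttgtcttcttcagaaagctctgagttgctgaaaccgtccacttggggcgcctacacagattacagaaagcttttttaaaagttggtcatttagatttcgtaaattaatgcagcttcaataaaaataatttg
Eip75B, intron between the starts of RC and RA, 3L:17988255-17988455, minus strand: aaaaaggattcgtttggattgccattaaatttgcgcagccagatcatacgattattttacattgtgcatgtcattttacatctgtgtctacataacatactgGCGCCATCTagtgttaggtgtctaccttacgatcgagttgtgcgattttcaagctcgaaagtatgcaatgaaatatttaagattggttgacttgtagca
ftz-f1, intron, 3L:18769488-18769688, minus strand: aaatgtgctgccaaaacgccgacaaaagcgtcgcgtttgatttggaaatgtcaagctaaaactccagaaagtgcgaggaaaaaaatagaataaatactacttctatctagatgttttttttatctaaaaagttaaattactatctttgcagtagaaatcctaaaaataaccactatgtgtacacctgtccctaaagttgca

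Eip75B encodes E75, a nuclear receptor whose transcription is induced directly by ecdysone. It was the gene with the most pooled summits of the 10 and 1 of 2 with a summit at a start site. The gene (FBgn0000568, 3L:17950953-18064696, minus strand) has 7 transcripts, each with a start site of its own, in the order RF, RE, RB, RG, RC, RA and RD from the distal end. The strongest of its summits, at 17999756, lay 65 bp downstream of the RC start (17999821), in an exon of that transcript and in an intron of 4 others. Its signal was 124.9 in the pooled and conservative lists, rank 786 of 2658. The thresholded lists gave this peak 53.5 in replicate 1 and 72.8 in replicate 2. None of the other 6 start sites of the gene held a summit in any thresholded list, so among the 7 alternative starts RC stood alone at this level. In the ranked lists RG reached 36.3 in replicate 1 and had no summit in replicate 2, RE had 18.0 in replicate 1 and 18.5 in replicate 2, and RB had 19.9 in replicate 2 alone.

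The remaining Eip75B summits lay in introns on either side of the RC start. The one at 18019797, 6235 bp downstream of the RG start (18026032) and 19976 bp upstream of the RC start, had a pooled signal of 78.1 (rank 1649) and was in the conservative list. Neither replicate had it in the thresholded list, while the ranked lists gave it 43.0 in replicate 1 and 34.4 in replicate 2, at offsets of 3 and 0 bp from the pooled summit. The one at 17988355 lay in an intron of 23400 bp, 11466 bp downstream of the RC start and 16916 bp upstream of the RA start. It was weak (47.7, rank 2508), was absent from the conservative list and both thresholded replicate lists, and had ranked signals of 33.6 in replicate 1 and 17.7 in replicate 2. Replicate 2 alone had a further thresholded summit of 35.8 at 18003214. The matching pooled summit, 3384 bp upstream of the RC start, reached 49.1 with an IDR of 0.0369 and did not enter the pooled thresholded list; replicate 1 gave it 14.6.

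usp encodes Ultraspiracle, the partner without which EcR does not bind hormone with high affinity. In contrast to the other 9 genes it is short (FBgn0003964, X:2038798-2042311, minus strand, 3514 bp), and it has 2 start sites 999 bp apart. Its main summit, at 2041476, lay 164 bp upstream of the RA start (2041312), in an exon of the longer transcript RB. The signal was 94.6 in the pooled and conservative lists (rank 1249), 55.6 in replicate 1 and 37.9 in replicate 2, both thresholded. A minor summit 200 bp further upstream, at 2041676, had a pooled signal of 7.80 (rank 2612) and 13.9 in replicate 1, and was absent from the conservative list. Its peak shared 116 bp with the main one, and the replicate 2 peak that overlapped it was the same 37.9 peak, so replicate 2 had 1 peak where the pooled list had the pair. The other replicate 2 summit within 500 bp of the RA start, of 8.08 in the ranked list, lay 420 bp downstream of it. On the minor summit at 2041676 the 2 pooled ranked lists differed. Its IDR was 2.7e-05 in the list that contains every pooled thresholded peak and 0.792 in the other.

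The usp promoter is shared ground. CG4313, transcribed from the other strand, starts 556 bp upstream of the RA start, at 2041868, and lies 392 bp from the main and 192 bp from the minor usp summit. With a 500 bp window both summits therefore count for both genes, and which start they serve cannot be told apart from the positions. The RB start (2042311) is at the same base as a start of Actn, alpha-actinin, which also spans the locus. No pooled summit lay within 500 bp of it, the nearest being 635 bp away. Among the 6 lists only the ranked ones reached it, where the strongest summit had 15.2 in replicate 1 and 20.2 in replicate 2.

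**Figure D1:**
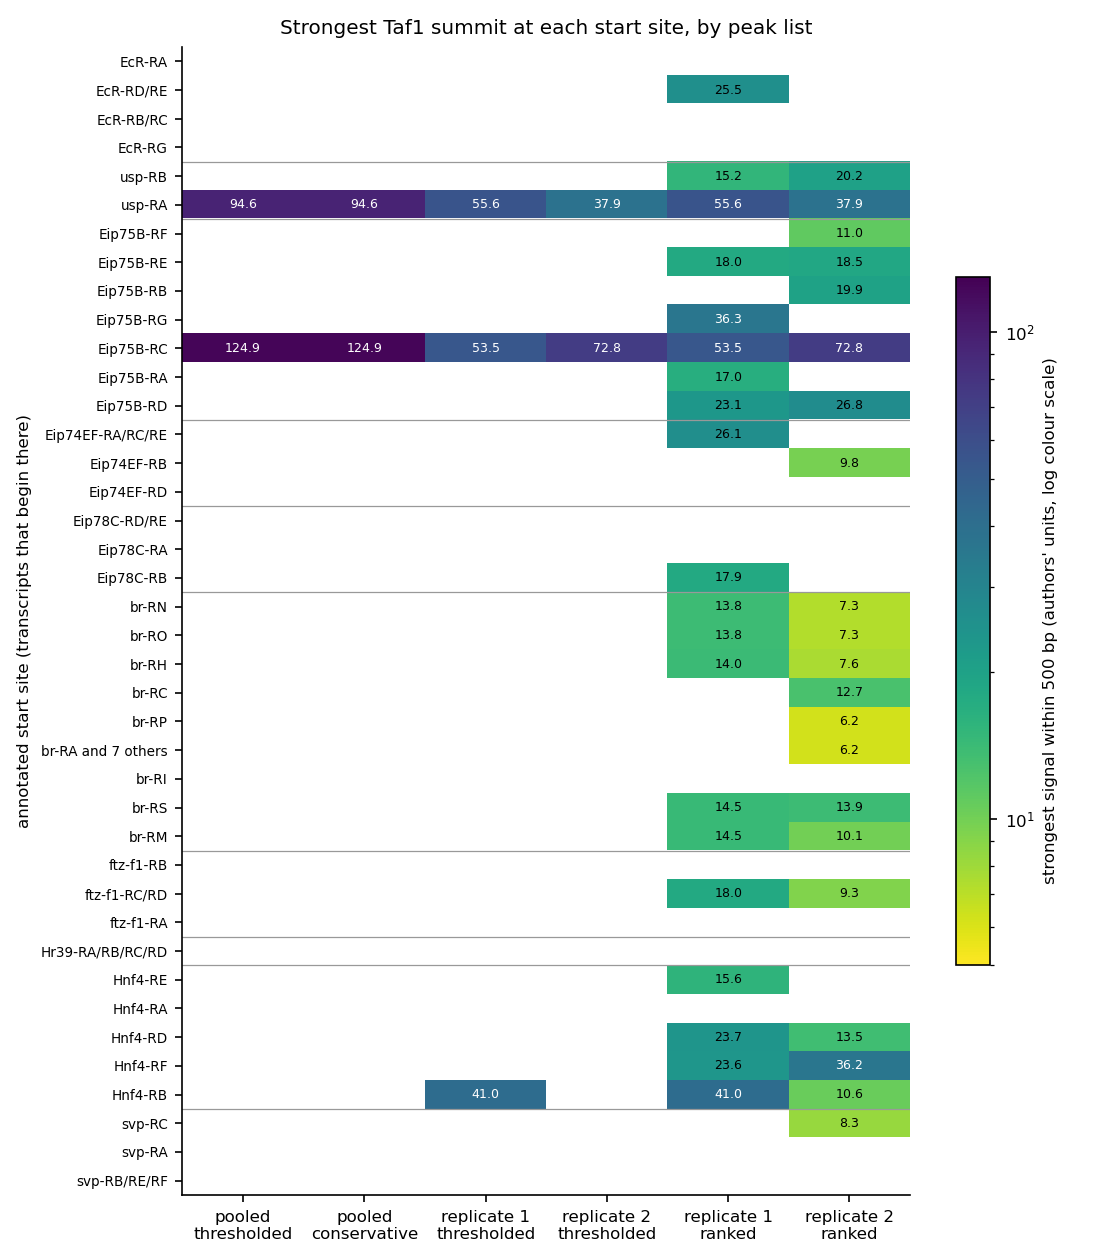
Strongest signal within 500 bp of each of the 40 annotated start sites (one per line, distal to proximal within a gene) in 6 peak lists; numbers and the log colour scale give the authors' signal, and blank cells have no summit. Only usp-RA and Eip75B-RC are filled in the pooled and conservative columns, and Hnf4-RB adds 41.0 in the thresholded list of replicate 1.

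EcR, the receptor itself, held a strong summit that lay at none of its start sites. The gene (FBgn0000546, 2R:6087873-6169087, minus strand) spans 81215 bp and has 4 start sites for 6 transcripts. The summit at 6151242 had a signal of 127.8 in the pooled and conservative lists (rank 754), 53.3 in replicate 1 and 81.5 in replicate 2, where it was the strongest of the members' peaks. It lay in an intron of 56758 bp, 5887 bp downstream of the RD and RE start (6157129) and 19320 bp upstream of the RB and RC start (6131922). The nearest annotated start of another gene was that of tRNA:Asn-GTT-1-1, 1434 bp away. Of the 4 EcR start sites, only that of RD and RE held a summit in a ranked replicate list, of 25.5 in replicate 1. The strongest EcR summit that missed the pooled threshold lay 1473 bp upstream of the RB and RC start, with a pooled signal of 55.4 and an IDR of 0.0178, and with 37.5 in replicate 1 and 14.5 in replicate 2.

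br, the Broad-Complex, encodes BTB zinc finger factors of the early ecdysone response. It held the strongest pooled summit of the 10 genes, 134.1 at 1618877 (rank 700), in the conservative list and both thresholded replicate lists, with 63.0 in replicate 1 and 68.0 in replicate 2. Replicate summits lay 2 and 1 bp from the pooled one. The gene (FBgn0283451, X:1575132-1664869, plus strand, 89738 bp) has 9 start sites for 16 transcripts, and the summit lay in an intron of 14 of them, 5220 bp downstream of the RI start (1613657) and 3431 bp upstream of the RS start (1622308). Mur2B, a gene on the opposite strand, spans the same position, and 1 of its starts lay 722 bp away, outside the 500 bp window. None of the 9 br start sites held a thresholded summit, including the one at 1612341 that begins 8 transcripts.

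ftz-f1 encodes a nuclear receptor that acts as a cofactor of Fushi tarazu in the early embryo and as a stage-specific regulator in the prepupa. Its pooled summit was weak. The peak at 18769588 had a signal of 57.0 (rank 2364) and was absent from the conservative list and both thresholded replicate lists; the ranked lists gave it 26.3 in replicate 1 and 30.9 in replicate 2. It lay in an intron of 33674 bp of transcript RB, 31721 bp downstream of that transcript's start (18801309) and 3844 bp upstream of the start of RC and RD (18765744). The gene (FBgn0001078, 3L:18750607-18801309, minus strand) has 3 start sites, and none held a thresholded summit. The distal one lies 3 bp from an annotated start of lncRNA:CR45939.

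**Figure D2:**
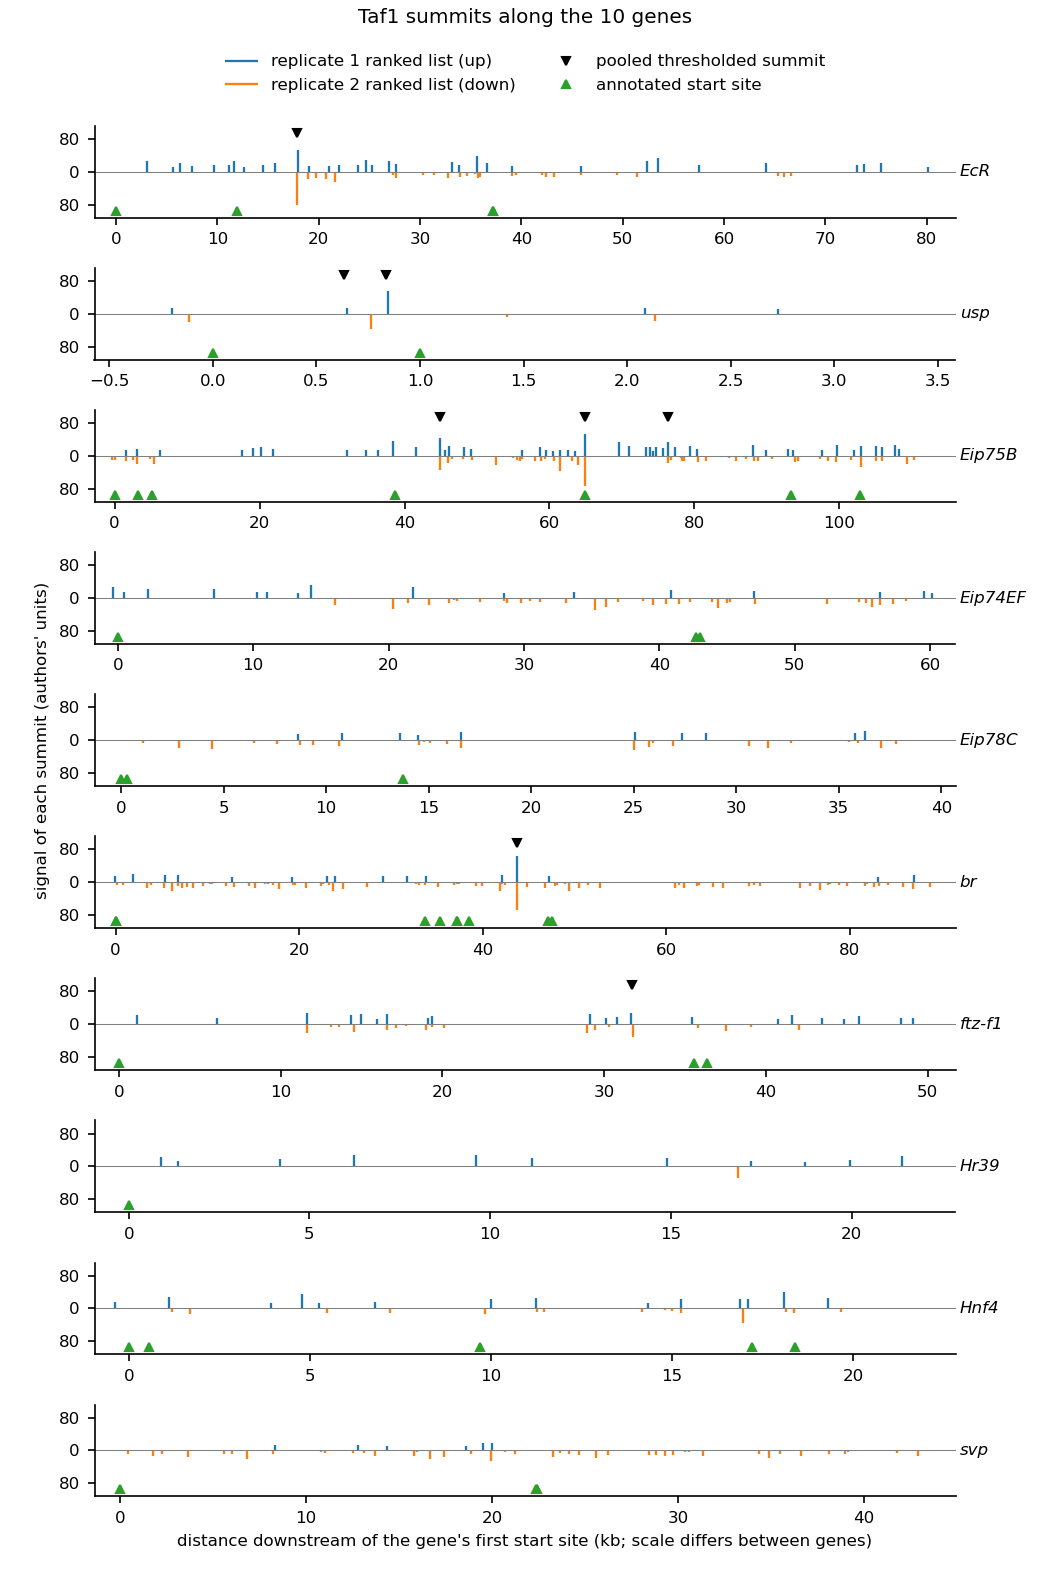
Summits along each of the 10 genes against distance downstream of the first start site in kb (each gene on its own scale); vertical lines give the authors' signal in the ranked list of replicate 1 (up) and replicate 2 (down), black triangles the pooled thresholded summits and green triangles the annotated start sites. At EcR and br the tallest lines of both replicates stand at 1 position between start sites, and at Eip75B they stand at the RC start.

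The 5 genes with no pooled or conservative summit differ in what the relaxed lists hold. Eip74EF (FBgn0000567, 3L:17558672-17619325, minus strand), which encodes the ETS-domain early factors E74A and E74B, had the lowest IDR of the 5 in the ranked list that contains every pooled thresholded peak. The summit, 2248 bp downstream of the start of RA, RC and RE (17619325), had a signal of 50.7 and an IDR of 0.0111, and it was absent from the other pooled ranked list. For comparison, the member summits that did pass had IDRs of up to 0.00763, at the Eip75B intron summit of 78.1. That Eip74EF summit was matched by a replicate 1 peak of 21.9 and by no replicate 2 peak. At the start itself the ranked list of replicate 1 had a signal of 26.1 and that of replicate 2 had no summit.

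Hnf4 (FBgn0004914, 2L:8687226-8709611, minus strand), a receptor known for its role in lipid metabolism, was the only gene of these 5 with a thresholded summit in a single replicate. In replicate 1 a peak at 8691517 with a signal of 41.0 lay 308 bp upstream of the RB start (8691209). In replicate 2 the strongest ranked summit within 500 bp of that start had a signal of 10.6, and the pooled ranked summit there, of 49.2, had an IDR of 0.77. At the RF start (8692400) the pooled ranked list held a summit of 59.3, 223 bp upstream, with 23.5 in replicate 1 and 36.2 in replicate 2. That pooled signal is above the 57.0 of the ftz-f1 summit that passed, yet its IDR was 0.69 in the same list and 0.0398 in the other pooled ranked list. The order of signals and the order of IDRs thus differed between these 2 summits.

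Eip78C (FBgn0004865, 3L:21226609-21266503, plus strand) encodes a receptor of the same early response, Hr39 (FBgn0261239, 2L:21237250-21259675, plus strand) a relative of ftz-f1, and svp (FBgn0003651, 3R:12258737-12302785, plus strand) the fly COUP-TF orthologue. The strongest pooled ranked summit of Eip78C had a signal of 42.0 and an IDR of 0.038 and lay 11285 bp from the nearest of its start sites. That of Hr39 had 34.8 with an IDR of 0.528, at 19945 bp. That of svp had 37.9 with an IDR of 0.662, at 2377 bp. All 3 were thus weaker than any pooled summit of the members that passed except the minor usp one. The single start site of Hr39 held no summit in any list. At svp the distal start, which is also an annotated start of CG44037, had a replicate 2 signal of 8.3, and the proximal pair had none.

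Read across the 40 start sites, 2 held a pooled summit (5.0%, 95% exact binomial interval 0.611 to 16.9%), against 11.9% of all protein-coding start sites. By gene, 2 of 10 had a summit at a start site (interval 2.52 to 55.6%), against 13.2% of protein-coding genes, and 5 of 10 had one at a start site or in the body (interval 18.7 to 81.3%), against 16.8%. Of the 10 genes 9 are at least 20 kb long, and the members have a median of 3 start sites, against 1 for protein-coding genes. Among genes of at least 20 kb, 4 of 9 members held a summit at a start site or in the body (interval 13.7 to 78.8%), against 40.3% of all 1020 such genes, and 1 of 9 held one at a start site, against 18.3%. Per length, the members' spans held 1.51 pooled summits per 100 kb, against 1.72 in the merged spans of all protein-coding genes. The background share lay inside the members' interval in each of these counts except the one over start site or body, where 16.8% was just under the lower bound of 18.7%; among genes of at least 20 kb it lay inside. The intervals cover counting error only, the genes were picked by name, and start sites of one gene are not independent. Where a share lies against an interval is a description, and no test was made over the members.

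The RA start of usp and the RC start of Eip75B held a summit in the conservative list and in both thresholded replicate lists as well. In the conservative list 2 of 10 genes had a summit at a start site, against 11.4% of genes, and 2 of 40 start sites did, against 10.2%; 4 genes had a summit at a start site or in the body, against 14.6%. In the thresholded list of replicate 1 the counts were 3 of 10 genes against 7.23%, 3 of 40 start sites against 6.45%, and 5 of 10 genes with the body included against 9.41%. In that of replicate 2 they were 2 of 10 against 10.6%, 2 of 40 against 9.68%, and 4 of 10 against 13.8%. The shares with the body included are over genes of all lengths, while 9 members are at least 20 kb long. In the pooled list that share was 16.8% over all genes and 40.3% over genes of at least 20 kb. The gene that replicate 1 added was Hnf4, at its RB start, and EcR, usp, Eip75B and br held thresholded summits in both replicates.

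In the ranked lists start sites filled up for members and background alike. In replicate 1, 8 of 10 genes and 20 of 40 start sites held a summit, against 49.7% of genes and 47.7% of start sites. In replicate 2, 7 of 10 genes and 21 of 40 start sites did, against 64.2% and 60.7%. A summit in both ranked lists was present at 14 of the 40 start sites (35%), against 33.7% of all protein-coding start sites, and in neither at 13. The 14 were the RE, RC and RD starts of Eip75B, both usp starts, the RD, RF and RB starts of Hnf4, the RN, RO, RH, RS and RM starts of br, and the RC and RD start of ftz-f1. Several br starts lie within 1 window of each other and share a summit, and the signals at the br starts were low, at most 14.5 in replicate 1 and 13.9 in replicate 2.

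Signals of the 2 replicates were compared at the members' pooled summits, which had passed an IDR threshold. That threshold favours peaks whose rank repeats between sets of reads, so closeness of the replicates here is partly a matter of selection. Leaving out the minor usp summit, whose replicate 2 peak is shared, the log2 ratio of replicate 2 to replicate 1 ran over the 7 summits from -0.92 at the weaker Eip75B intron summit to 0.61 at EcR, with a median of 0.11. Over all 2505 pooled peaks matched in both ranked lists the median was 0.16, with the 5th and 95th percentiles at -1.07 and 1.14. The ratio was 0.44 at the Eip75B RC start, 0.11 at br, 0.23 at ftz-f1, -0.32 at the stronger Eip75B intron summit and -0.55 at usp. Every one of the 7 lay inside the range of the other peaks.

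**Figure D3:**
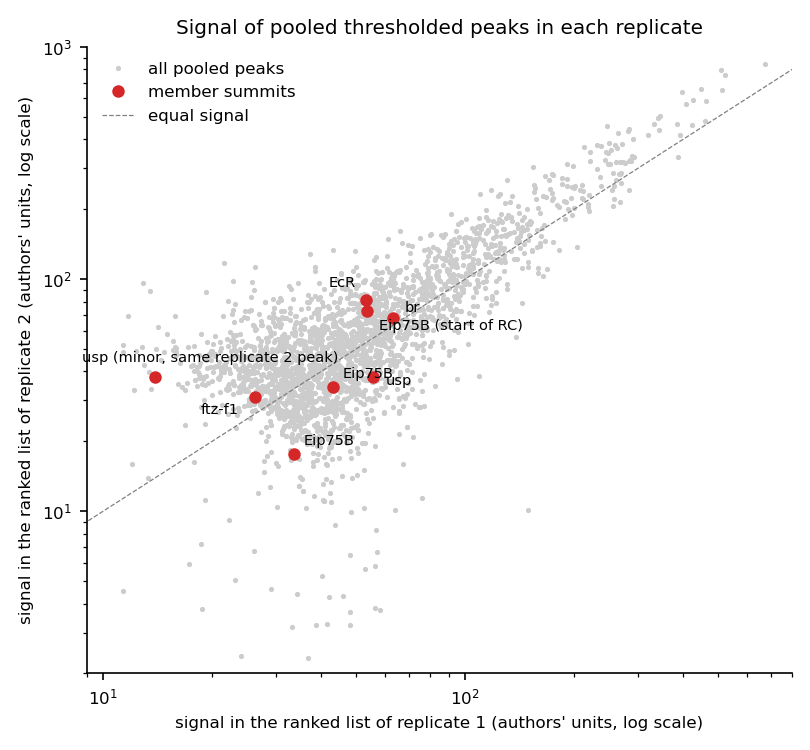
Signal of each pooled thresholded peak in the ranked list of replicate 2 against replicate 1 (authors' units, both axes logarithmic); red points are the 8 member summits, grey points all 2505 matched pooled peaks, and the dashed line is equal signal. The 8 member summits sit in the lower and middle part of the cloud, from 13.9 to 63.0 in replicate 1 and from 17.7 to 81.5 in replicate 2.

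The number of relaxed summits differed most between the replicates at br, svp and Hr39, and at br and svp the flanks differed in the same direction. The br span held 15 summits in the ranked list of replicate 1 and 80 in that of replicate 2, which is 1.67 and 8.91 per 10 kb, against 1.25 and 9.05 per 10 kb in the 100 kb on either side. At svp there were 6 and 43, or 1.36 and 9.76 per 10 kb, against 2.5 and 9.0 in the flanks. Hr39 ran the other way, with 11 in replicate 1 and 1 in replicate 2, or 4.91 and 0.446 per 10 kb, against 3.7 and 3.45 in its flanks. EcR (33 and 28), Eip75B (48 and 52), ftz-f1 (21 and 18), Hnf4 (13 and 15) and usp (4 and 3) had nearly even counts. Eip74EF (15 and 36) and Eip78C (10 and 24) had more in replicate 2. The replicate 2 list is much the longer, so even counts are not the usual case. Whole arms held 2.55 and 6.83 per 10 kb on 3L, 2.46 and 7.03 on 2R, 2.68 and 7.24 on 2L, and 2.13 and 6.45 on X. Eip74EF (2.47 and 5.94 per 10 kb) and Eip78C (2.51 and 6.02) were thus near their arm, 3L, in both replicates. Over all member spans, the ranked density was 3.33 per 10 kb in replicate 1 and 5.68 in replicate 2, against 2.70 and 7.26 in all protein-coding spans. Read depth is unknown, so the part of depth in these counts was not tested.

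**Figure D4:**
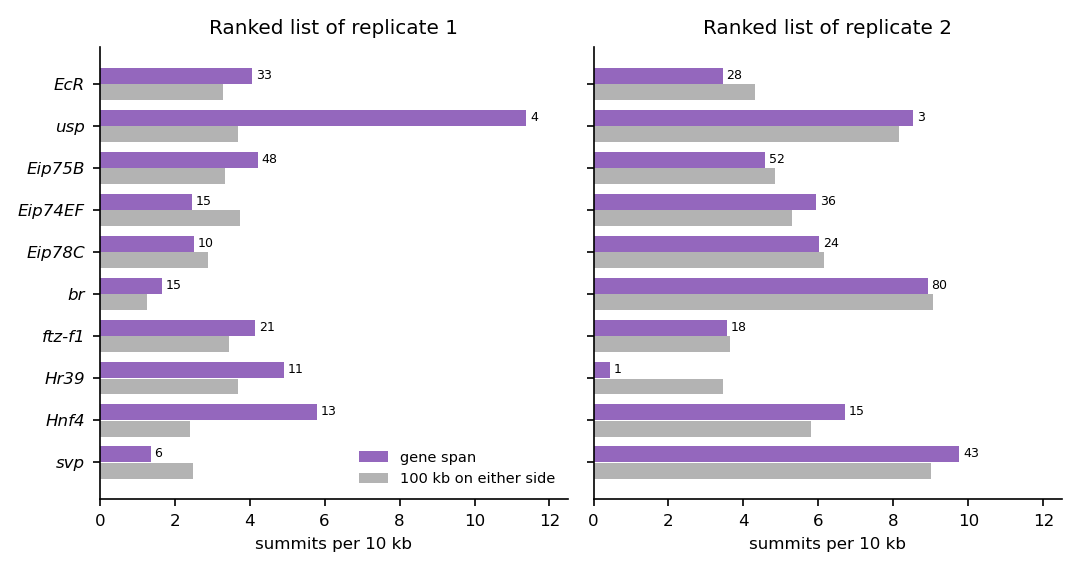
Summits per 10 kb in the ranked list of each replicate, in the span of each gene (purple, with the number of summits at the bar end) and in the 100 kb on either side (grey). The br and svp spans hold 15 and 6 summits in replicate 1 but 80 and 43 in replicate 2, and Hr39 holds 11 and 1.

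The sequences shown above were searched on both strands for the TATA box (TATAAA), an initiator core (TCAGT), the GAGA factor element (GAGAG), the core hexamer of nuclear receptor sites (AGGTCA), the inverted repeat bound by EcR and Usp, and, chosen after the sequences were seen, CGATA (part of the BEAF-32 and DREF elements) and GCGCCATCT (a core of the CTCF element). Sequence of chromosome arm 2R was not used here, so the 509 pooled summits on that arm, that of EcR among them, were not searched, and the shares below are over the 2149 pooled summits and the start sites on the other arms. No 2 matches overlapped in the windows printed. A match is a description and not a bound site. The clearest feature was GCGCCATCT in the windows of both Eip75B intron summits, from 2 to 10 bp downstream of the weaker summit and from 58 to 50 bp upstream of the stronger one. These are 2 of the 7 member windows outside EcR, against 20 of 2149 pooled summit windows of the same length (0.931%), 0.63% of those within 500 bp of a protein-coding start and 1.25% of the others. As this sequence was picked for these windows, its share is given with no test.

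Of the other motifs, CGATA occurred in 2 of the 7 member windows, with 2 copies at br and 1 at usp, against 28.2% of the 2149 pooled windows searched. GAGAG was found in 1 window, with 2 copies around the summit near the Eip75B RC start, against 22.2%. TATAAA was in 1, with 2 copies on the strand opposite to usp, against 37.9%. TCAGT was in 1 of 7, around the same Eip75B summit, against 33.6%. It lay on the opposite strand, 66 to 70 bp downstream of that summit, and not at the RC start itself. The hexamer AGGTCA was in none of the 7 windows and in 3.86% of the pooled windows searched. The inverted repeat, searched with alternative bases allowed at some positions, was in 0 of 7 and 0 of 2149. As no pooled window held it, its absence from the 7 tells nothing about the members. The GC content of the 7 windows was 33.8 to 44.3%, against a median of 34.3% in the 2149 (5th to 95th percentile 25.4 to 50.2%).

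Among the 7 starts of Eip75B, TCAGT was found at RF, RA and RD and not at RE, RB, RG and RC. All 7 are shown in gene order to set their letters beside their signals, and each line runs from 40 bp before to 40 bp after the annotated start, with matches in capitals.
Eip75B RF, 3L:18064656-18064736, minus strand: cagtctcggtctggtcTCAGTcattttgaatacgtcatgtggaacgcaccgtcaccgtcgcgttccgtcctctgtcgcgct
Eip75B RE, 3L:18061413-18061493, minus strand: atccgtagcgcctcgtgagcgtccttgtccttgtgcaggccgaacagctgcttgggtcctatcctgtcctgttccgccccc
Eip75B RB, 3L:18059558-18059638, minus strand: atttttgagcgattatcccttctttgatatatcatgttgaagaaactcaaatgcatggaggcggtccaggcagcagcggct
Eip75B RG, 3L:18025992-18026072, minus strand: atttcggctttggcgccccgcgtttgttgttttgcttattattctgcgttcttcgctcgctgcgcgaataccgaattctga
Eip75B RC, 3L:17999781-17999861, minus strand: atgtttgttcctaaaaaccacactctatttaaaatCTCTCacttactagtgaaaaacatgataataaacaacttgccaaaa
Eip75B RA, 3L:17971399-17971479, minus strand: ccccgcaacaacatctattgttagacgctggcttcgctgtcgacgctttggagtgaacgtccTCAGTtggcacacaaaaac
Eip75B RD, 3L:17961774-17961854, minus strand: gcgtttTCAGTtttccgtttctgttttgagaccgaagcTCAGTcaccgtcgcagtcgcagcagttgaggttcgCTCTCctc
RC, the start with the pooled summit, has 1 GAGAG on the opposite strand just before the start. RD has TCAGT across the start, at -2 to 2, and a ranked signal of 23.1 in replicate 1 and 26.8 in replicate 2. RF and RA each have TCAGT away from the start and a ranked signal in 1 replicate only, 11.0 in replicate 2 at RF and 17.0 in replicate 1 at RA. Over the 36 member starts outside EcR, TCAGT was present at 14, against 28.5% of 15569 protein-coding starts, GAGAG at 7, against 9.4%, TATAAA at 1, against 12.3%, and CGATA at 3, against 20.2%. Some of these windows overlap, so the counts are not of separate elements. At br, the RN and RO starts share the same TCAGT and the same CGATA, and the RP and RA starts share their TCAGT copies. At Hnf4 RE and br RI the TCAGT was on the opposite strand only.

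Beside the 10 genes, 64 related genes were listed by hand in 4 lists, all matched to the annotation. They do not form 1 pathway. Of the 64, 15 held a pooled summit at a start site (23.4%), against 13.2% of all protein-coding genes and 18.3% of those at least 20 kb long. Other nuclear receptors were at 4 of 13, led by Hr96 (220.0), a receptor of xenobiotic and lipid responses, and ERR (148.1), the oestrogen-related receptor, followed by Hr3 (73.2) and Hr78 (62.3). The Hr96 and ERR summits also lay within 500 bp of starts of EMC6 and Atg18a. Hr3 had a stronger summit in its gene body, of 363.8, 7858 bp from a start. It was in the conservative list and, with 188.6 and 181.9, in the thresholded lists of replicates 1 and 2. Genes of ecdysone synthesis, uptake and breakdown were at 1 of 20, the zinc finger gene woc (61.8), and no other gene of that list, which includes the cytochrome P450 genes that make the hormone, held a pooled summit. Other ecdysone-induced genes were at 7 of 20, the strongest being the small heat shock gene Hsp27 (395.6), the transporter E23 (267.7), Eip63F-1 (246.2), Ldh (145.1), the cell death gene hid (95.8) and vri (80.6). Coregulators and hormone partners were at 3 of 11, with alien (360.3), a COP9 signalosome subunit also described as a corepressor, the EcR coactivator tai (101.2) and TP53INP (66.7), listed under its older name DOR. The alien and tai summits, the start-site summit of Hr3 and the Ldh summit also lay within 500 bp of starts of CG18661, CG9586, CG46321 and lncRNA:CR44522.

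Set beside these lists, the members' start-site signals of 124.9 at Eip75B and 94.6 at usp were in the middle of the range, and 2 of 10 is within the spread of the 4 lists, from 5% to 35%. Gene-body summits without a start-site summit, as at EcR, br and ftz-f1, were also found at Hr4, Eip63E, ImpL2, Smr, bon and gce. The strongest, at gce (327.4), lay 530 bp from a start and that at bon (59.7) 555 bp, just outside the 500 bp window. Farther from a start were those at ImpL2 (163.1, 1096 bp), Smr (187.2, 7070 bp) and Eip63E (60.4, 10884 bp). At Eip63E other lists held a stronger gene-body summit. It had 180.9 in the conservative list, and the thresholded lists reached 78.1 in replicate 1 and 103.1 in replicate 2. Hr4 had 6 pooled summits of up to 152.8, the strongest 22045 bp from a start. These lists share loci and were compiled by hand, and no test was made over them.

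**Figure D5:**
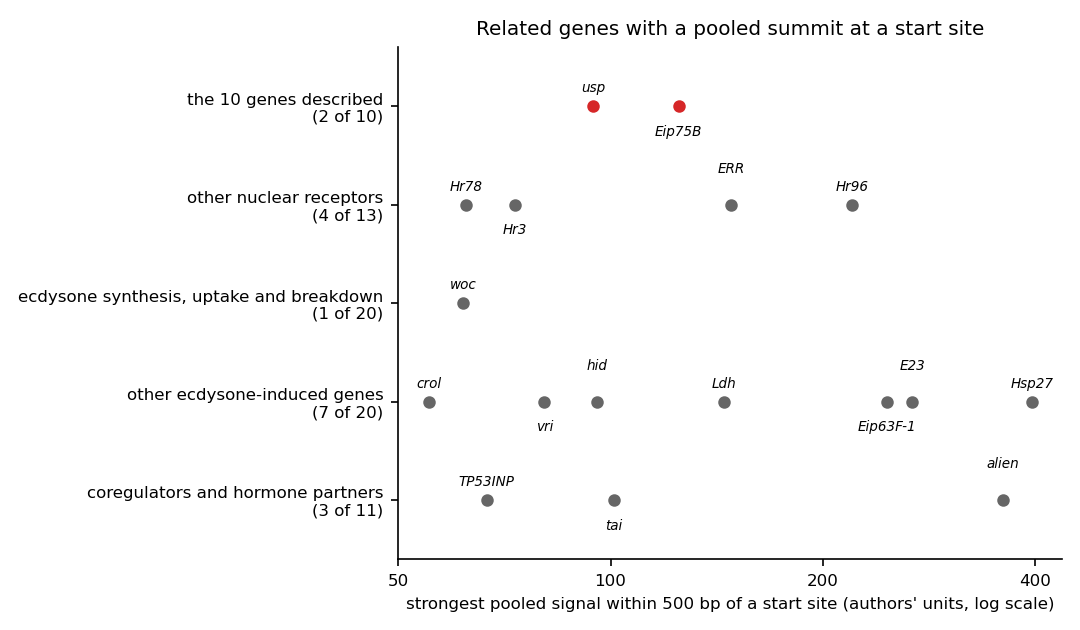
Strongest pooled signal within 500 bp of a start site (authors' units, logarithmic axis) for each gene that holds such a summit, in the 10 genes described (red) and in 4 lists of related genes (grey), with the number of genes out of those in the list. Eip75B (124.9) and usp (94.6) lie between crol (55.2) and Hsp27 (395.6), the weakest and the strongest shown.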

How the data were processed

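ChIP-seq of Taf1-eGFP was done in 2 biological replicates of whole embryos (1 group), replicates numbered per the labels. The authors deposited 8 peak lists on dm6, per the labels. No aligner or peak caller is named: the software is not given in the sources used here. The deposited signal column is the peak caller's value, on a scale not stated. The deposited score column is an IDR score of 830 or more in the thresholded lists. The ranked files add a deposited −log10 column of the global IDR, capped at 5; the pooled IDR values printed come from the ranked list that holds all 2658 pooled thresholded peaks, unless the other list, which lacks 93 of them, is named. In the pooled ranked lists, 4 further columns, of signal in the sets of reads compared, were not used. The lists hold no read counts, so depth is unknown.

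Summits were placed with Python 3.11.15 and pandas 2.3.3. Peaks off the chromosome arms were left out. Start sites and transcripts came from Ensembl release 115, on the same assembly as dm6, and sequence from RefSeq's release 6 genome. The gene body is the annotated span. A replicate peak matched a pooled peak where they shared at least 1 bp. Shares have exact Clopper-Pearson intervals (scipy 1.17.1). The placement was tested on simulated peaks. The members and gene lists were chosen with earlier results of these data known. All 10 members are named with every pooled summit, up to 6 of the strongest genes of each related list are named, and genes named beyond that were chosen after their values were seen. No test between groups was possible with 1 group.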

Additional observations from a re-analysis of the deposited data

How the results depend on the processing

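Alternatives were the conservative and single-replicate lists, an IDR of 0.001, windows of 250 and 1000 bp, the nearest start only, protein-coding transcripts, closer matching of summits and, added after the data were seen, RefSeq start sites. Of 35 alternative values, 24 stayed within 1.5 times the main count and 11 did not. The 8 summits at member genes became 5 in the conservative list and 5 at an IDR of 0.001 or less, and 5 without replicate 1 to 6 without replicate 2. In the ranked list of replicate 1, 8 genes held a summit at a start site, 10 held one at a start site or in the body, 20 start sites held one, and 180 summits were counted. In that of replicate 2 the same counts were 7, 10, 21 and 302. Of the 8 summits, 7 had a summit within 100 bp in both ranked lists; the exception was the minor usp summit, whose offset in replicate 2 was 128 bp. No paired analysis was possible because there was 1 group. Read depth is unknown, the control was not used here, and the position of a summit is no finer than fragments of 200 to 800 bp allow.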
